A study of Mus musculus with 47 samples.

Results

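NuRD is the nucleosome remodelling and deacetylase complex, a chromatin complex that Bcl11b and other zinc-finger factors recruit. The 8 genes described encode its core subunits and were chosen by symbol: Chd4, Mta1, Mta2, Hdac1, Hdac2, Rbbp4, Rbbp7 and Mbd3. All 8 were found, each with 1 entry, among the 17754 genes of a table of RNA-seq values in FPKM, fragments mapped to a gene per kilobase of its transcript, scaled to the size of the library. The values came from 47 libraries of mouse T-cell precursors, 19 of them labelled as Bcl11b knockout and 4 given GSI, an inhibitor of gamma-secretase, the enzyme that releases the active part of Notch.

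In NuRD, the ATPase Chd4 moves nucleosomes, and the deacetylases Hdac1 and Hdac2 remove acetyl groups from histone tails. Mta proteins form the scaffold on which the deacetylases dock, Rbbp4 and Rbbp7 bind histones, and Mbd3 links the deacetylase and remodelling parts. In T cells Bcl11b, a factor that turns on at lineage commitment, binds NuRD subunits, and Chd4 is known to be needed for T-cell development.

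Fetal liver precursors gave 14 knockout libraries (8 cultured on OP9-DL1 and 6 on OP9-DL4 stroma) and 11 control libraries (8 and 3). OP9-DL1 and OP9-DL4 are stromal lines that present the Notch ligands Delta-like 1 and 4. Knockout cells carried homozygous floxed Bcl11b alleles and controls were Bcl11b-intact B6 cells; the protocol gives both the Cre retrovirus and, in part of the cultures, a ROSA26R-YFP reporter. DN2a, DN2b and DN3 are successive double-negative stages of T-cell precursors. By protocol, cells with floxed alleles were gated as DN2a and intact ones as DN2b, and the titles match it in part. They name DN2a for 8, DN2 for 5 and DN2b for 1 of the 14 knockout libraries, and DN2b for 8 and DN2 for 3 of the 11 controls. Where the gates differ, genotype and gate cannot be told apart. IL-7 had been reduced in 4 of the knockout and 3 of the control libraries, a step that the protocol says was given up because of its effects on cell recovery and RNA quality. Knockout DL1 libraries 3 to 5 were harvested from 1 culture on days 9, 10 and 12, and control DL1 libraries 4 to 6 likewise. By title date and day, knockout DL1 libraries 6 and 7 share a start date with control DL1 library 7 and the vector libraries below. Their titles do not say whether any of them came from 1 culture.

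Further libraries were 4 GSI-treated ones (2 DN2a and 2 DN2b, with 1 μM for 12 h) and 6 untreated B6 ones (2 DN2b and 4 DN2a), all from fetal liver on OP9-DL1. The untreated library labelled DN2b 1 and its GSI partner go against that label: their titles and column names say DN3, while their stage label says DN2b. Each DN2b comparison is therefore given with and without them. Thymic DN3 cells taken ex vivo gave 3 libraries: LckCre, floxed CreERT2 with no deletion, and CreERT2. The other libraries were single or paired. They were a Bcl11b knockout given a Bcl11b vector, and a knockout and a control given an empty vector, each 36 h before harvest. A CreERT2 bone marrow knockout and its control were both labelled as tamoxifen-induced and were differentiated on OP9-DL4 stroma. There was also an LckCre thymic DN2 knockout, and a thymic DN3 knockout and 2 controls treated with 100 nM tamoxifen and cultured for 3 or 4 days. Lck-driven Cre is expressed in thymocytes, and CreERT2 acts only with tamoxifen.

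Bcl11b itself averaged 24.0 ± 7.06 FPKM in the knockout and 56.4 ± 19.8 FPKM in the control cultures (SD, n = 14 and 11). It differed by -1.22 on the log2(FPKM + 1) scale (SE 0.21, adjusted p = 0.000127, limma). A deleted exon still leaves reads from the rest of the gene. The library labelled control DL1 1 stood apart: it had 16.9 FPKM of Bcl11b, the lowest of the controls, where its date-matched knockout library had 23.6 FPKM. Results that rest on it are given without it as well. Column totals ran from 581205 to 1005744 FPKM, and the sequencing depth is unknown. Markers of OP9 stroma summed to 27.3 to 114 FPKM over 9 genes in the knockout and 20.4 to 105 FPKM in the control libraries. The 6 myeloid markers in the table summed to 9.42 to 49.3 FPKM in the knockout and 8.47 to 25.9 FPKM in the control libraries. Their part in the differences below was not tested. In bulk RNA, fewer cells of a type and less RNA per cell cannot be told apart. Where the labels do not say that libraries came from separate cultures, the p-values measure only the spread between these libraries, which may be technical.

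Promoters of 3 members are printed first, so that the values can be read beside them. Mta1 was the member called lower in the knockout. Rbbp4 and Rbbp7, the histone binders, were the members whose DN2b and DN2a values did not overlap, as for 45.1% of all genes tested. Neither was called. Each promoter runs 5′ to 3′ from 250 bases before the start of the gene to 50 bases after it, from RefSeq on build GRCm38.p6. Capitals mark the searched motifs on either strand: the GC box GGGCGG, the CCAAT box CCAAT and a RUNX motif TGTGGT. Mta1 lies on the plus strand at chr12:113098028-113098327, Rbbp4 on the minus strand at chr4:129335321-129335620 and Rbbp7 on the plus strand at chrX:162760122-162760421.
Mta1: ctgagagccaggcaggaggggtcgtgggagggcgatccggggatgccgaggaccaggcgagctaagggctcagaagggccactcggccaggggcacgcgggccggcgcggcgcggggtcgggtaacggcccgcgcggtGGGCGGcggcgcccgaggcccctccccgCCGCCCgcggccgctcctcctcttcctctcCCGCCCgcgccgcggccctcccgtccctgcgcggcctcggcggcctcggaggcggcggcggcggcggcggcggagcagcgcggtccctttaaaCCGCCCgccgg
Rbbp4: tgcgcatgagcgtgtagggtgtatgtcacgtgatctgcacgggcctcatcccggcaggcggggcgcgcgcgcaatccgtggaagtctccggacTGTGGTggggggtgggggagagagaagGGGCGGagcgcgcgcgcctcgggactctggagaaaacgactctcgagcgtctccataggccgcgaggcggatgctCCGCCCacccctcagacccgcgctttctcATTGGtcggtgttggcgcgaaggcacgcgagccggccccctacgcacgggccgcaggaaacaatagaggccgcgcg
Rbbp7: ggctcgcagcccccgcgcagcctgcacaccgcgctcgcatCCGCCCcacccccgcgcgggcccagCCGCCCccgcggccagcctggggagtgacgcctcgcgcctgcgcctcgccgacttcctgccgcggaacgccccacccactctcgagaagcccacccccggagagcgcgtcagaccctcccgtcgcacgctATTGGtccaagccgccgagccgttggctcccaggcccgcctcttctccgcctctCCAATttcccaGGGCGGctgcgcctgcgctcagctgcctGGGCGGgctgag

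The Mta1 window held 81.0% G and C and 50 CpG pairs, against 68.7% and 39 in Rbbp4, 75.7% and 38 in Rbbp7, and medians of 52.7% and 7 over the 32851 promoters of the table. Of the members, 7 had a promoter in that table and Chd4 had 2 starts, which gave 8 windows. The 2 Chd4 windows overlap. The GC box stood in all 8 windows, as it did in 35.7% of the promoters. CCAAT stood in 5 of the 8 and in 37.4% of all, with none in Mta1. The RUNX motif stood in Rbbp4 and Hdac2, and in 16.8% of all. An ETS motif, CCGGAAG, stood in Mta2, and in 8.86% of all. None of the 8 windows held the E2F letters TTTCCCGC, TTTGGCGC or TTTCGCGC, which stood in 1.84% of all. These matches describe letters and not binding.

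All 8 members were abundant in every library. Their values lay between 41.0 and 308 FPKM, and the mean of each was above that of at least 92.6% of the genes. By FPKM, Rbbp4 led with a mean of 232 over the 47 libraries. Chd4 followed at 180, then Hdac1 at 160 and Rbbp7 at 153, and these 3 overlapped widely. Mta2 averaged 119 and Mbd3 115, Hdac2 81.0 and Mta1 73.6 FPKM. The order of Mta2 and Mbd3 and of Hdac2 and Mta1 lay within their spread over libraries. The histone binder Rbbp4 and the scaffold protein Mta2 varied little: 2.56% and 3.76% of genes with a like mean had a lower SD on the log2 scale. For Rbbp7 this share was 12.9%, for Hdac1 23.5%, for Mta1 27.5% and for Hdac2 30.5%. Mbd3, at 41.4%, and Chd4, at 41.9%, varied about as much as other genes of their level. By contrast Chd3, the paralogue of Chd4 that can take its place in NuRD, reached from 0.1 to 144 FPKM. For Chd3, 97.3% of like genes had a lower SD.

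**Figure D1:**
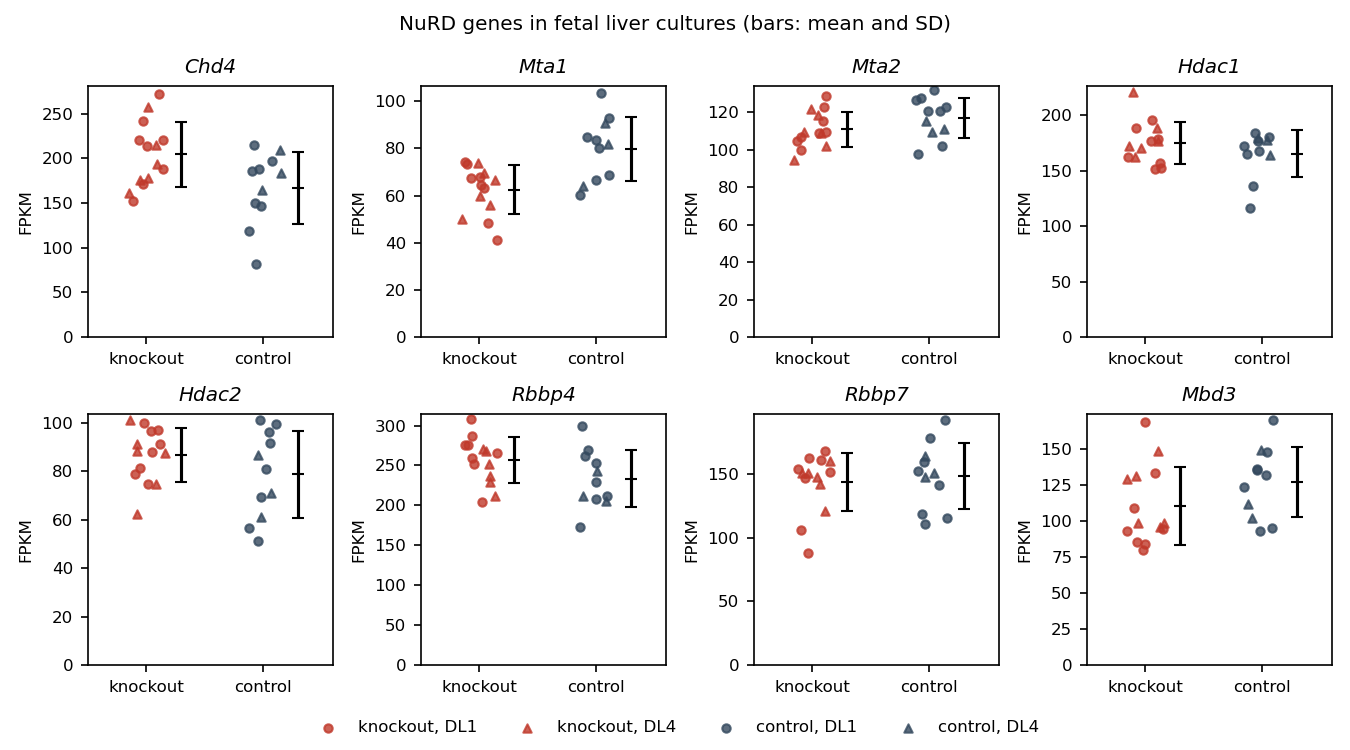
FPKM (vertical axes, from 0) of the 8 NuRD genes in 14 fetal liver knockout and 11 control libraries; circles are DL1 and triangles DL4 cultures, and bars give the mean and SD of each group. The groups overlap for every gene. The Mta1 panel shows 5 knockout libraries below all controls, the Chd4 panel 5 above all controls and the Hdac1 panel 4 above.

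Between knockout and control cultures, 1 of the 8 members was called at an adjusted p under 0.05, and it was lower in the knockout. Of the 12678 genes tested, 16.9% were called (9.8% higher and 7.1% lower), so that 1 of 8 lay near the background. The members' differences had a median of 0.01 with 4 above and 4 below 0, against a median of 0.04 over all genes. Their summed level was 1150 ± 43.0 FPKM in the knockout and 1116 ± 83.0 FPKM in the control libraries.

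Mta1, the scaffold gene, was the one called. Its values had a lowest of 41.0, a median of 65.5 and a highest of 74.3 FPKM in the 14 knockout libraries. In the 11 controls the lowest was 60.2, the median 81.7 and the highest 103 FPKM. The knockout libraries thus sat at the low end, with 5 of 14 below every control and the rest within the control range. Mta1 averaged 62.5 ± 10.3 FPKM in the knockout and 79.7 ± 13.4 FPKM in the control cultures (SD, n = 14 and 11). The difference was -0.35 on the log2(FPKM + 1) scale (SE 0.11, limma adjusted p = 0.0243). Knockout and control libraries that shared a title date, stroma and IL-7 level gave 9 pairs, and Mta1 was lower in the knockout in 9 of 9, by 0.08 to 1.16 with a median difference of -0.25. The pairs of days 9, 10 and 12 from 1 knockout and 1 control culture are not independent, which leaves 7 culture pairs. How many of all genes were lower in 9 of 9 pairs was not measured. In the 4 pairs whose titles name the same stage the median was -0.23, and in the 5 whose titles differ it was -0.31. The pairs of days 9, 10 and 12 from that 1 knockout and 1 control culture are all among the 4, so those 4 are not independent. In the culture followed over time, Mta1 stood at 67.3, 73.3 and 41.0 FPKM in the knockout on days 9, 10 and 12, and at 80.2, 84.9 and 92.8 FPKM in the control. The day 12 pair was the widest apart of the 9.

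The Mta1 call rests on the pooled fit. With the pairs as a replicate block the difference was -0.34 with an adjusted p of 0.0879 (limma), and with the same cultures averaged into 7 pairs it was -0.28 with 0.148. Within DL1 it was -0.38 and within DL4 -0.34, and within standard IL-7 it was -0.28, with limma adjusted p-values of 0.148, 0.334 and 0.148. Without knockout DL1 library 1 the adjusted p was 0.0538, and without control DL4 library 1 it was 0.0603. Without the library labelled control DL1 1 the difference was -0.39 (limma adjusted p = 0.0115). The interaction of knockout with stroma was 0.04 (SE 0.24) and with IL-7 it was -0.23 (SE 0.24), with adjusted p-values of 1.00 and 0.692 in limma. In these 2 interactions 0% and 0.701% of 14271 genes were called (the IL-7 one 0.645% higher and 0.0561% lower), and none of the members was.

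**Figure D2:**
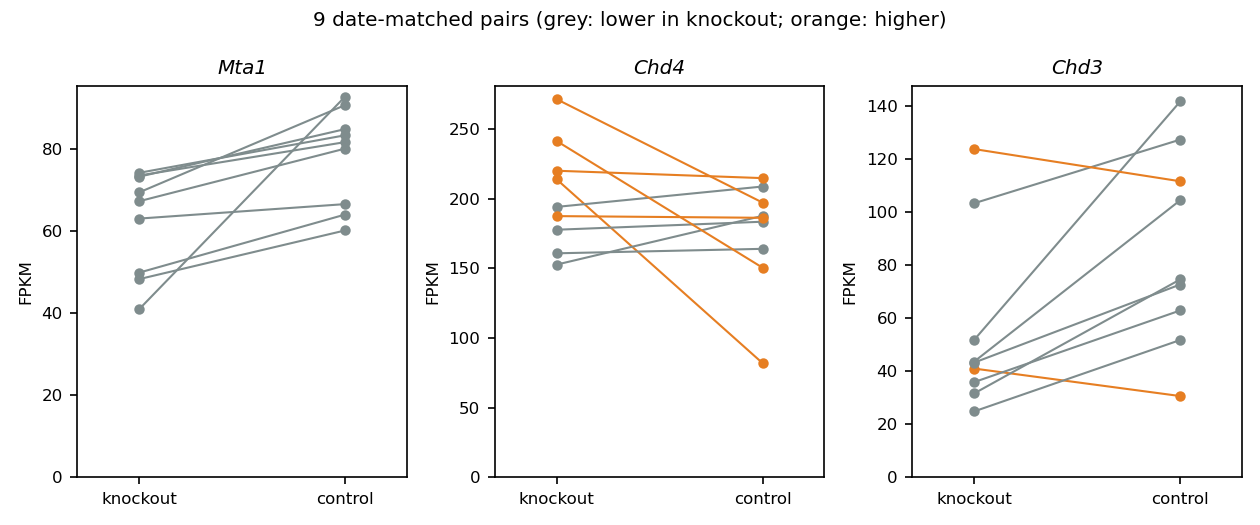
FPKM (vertical axes, from 0) of Mta1, Chd4 and Chd3 in 9 pairs of fetal liver knockout (left) and control (right) libraries that share a date, stroma and IL-7 level; each line joins 1 pair. Mta1 is lower in the knockout in 9 of 9 pairs, Chd3 in 7 and Chd4 in 4. Pairs taken from 1 culture over time are not independent.

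Mta2, the other main scaffold gene, averaged 111 ± 9.60 FPKM in the knockout and 117 ± 10.9 FPKM in the control cultures (difference -0.07, SE 0.07, limma adjusted p = 0.577). Mta1 made up 35.9% ± 3.13 of the FPKM of Mta1 and Mta2 together in the knockout and 40.4% ± 3.42 in the control libraries (SD, n = 14 and 11). In the single or paired libraries this share was 35.3% in the library labelled bone marrow knockout and 40.2% in its control, 35.8% in the empty-vector knockout and 40.3% in the empty-vector control, and 36.1% in thymic DN3 knockout cells after culture, against 37.9% and 39.2% in their controls. Mta1 itself was 59.9 FPKM in the empty-vector knockout and 59.1 FPKM in its control, so it was not lower there. In thymic DN3 cells after culture it was 80.8 FPKM in the knockout and 74.1 and 80.5 FPKM in the controls. Mta2 in these 2 sets was 107 against 87.6 FPKM, and 143 against 122 and 125 FPKM. In the bone marrow set Mta1 was 73.9 FPKM in the library labelled knockout and 83.9 FPKM in its control. The Mta1 share was 35.1% with the Bcl11b vector, beside the 35.8% with the empty vector. In the LckCre thymic DN2 knockout it was 35.3%, against 36.6% in LckCre DN3 cells, and the other 2 ex vivo DN3 libraries had 34.5% and 41.1%. Over the 47 libraries Mta1 and Mta2 were the most alike of the 28 pairs of members (Pearson r = 0.63, Spearman rho = 0.69). Within the fetal liver knockout libraries r was 0.66, and within the controls it was 0.55.

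Chd4, the ATPase, had a lowest of 153, a median of 204 and a highest of 271 FPKM in the knockout, and a lowest of 82.0, a median of 184 and a highest of 215 FPKM in the controls. Of the 14 knockout libraries, 5 lay above every control. The knockout mean was 204 ± 36.1 FPKM and the control mean 167 ± 40.3 FPKM, a difference of 0.30 that did not pass the test (SE 0.13, interval 0.03 to 0.56, limma adjusted p = 0.120). Of the 9 pairs, 5 were higher and 4 lower in the knockout, with a median of 0.01. The widest pair, at 1.37, holds the library labelled control DL1 1, the control with the least Bcl11b. Without that library the difference was 0.22 (limma adjusted p = 0.193).

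The deacetylases and histone binders were closer still. Hdac1 averaged 175 ± 18.9 FPKM in the knockout and 165 ± 20.8 FPKM in the control cultures, a difference of 0.07 (SE 0.08, limma adjusted p = 0.605). For Hdac1, 4 of 14 knockout libraries lay above every control. Hdac2 averaged 86.7 ± 11.1 and 78.7 ± 17.9 FPKM in the knockout and the control (0.17, SE 0.11, limma adjusted p = 0.330). Hdac1 gave 66.9% of the FPKM of the deacetylase pair in the knockout and 68.0% in the control libraries. Rbbp4 averaged 257 ± 28.6 FPKM in the knockout and 233 ± 35.9 FPKM in the control cultures (0.16, SE 0.08, limma adjusted p = 0.208). Rbbp7 averaged 144 ± 23.0 FPKM and 148 ± 25.8 FPKM in the knockout and the control (-0.06, SE 0.11, limma adjusted p = 0.798). Rbbp4 made up 64.2% ± 3.72 of the Rbbp pair in the knockout and 61.2% ± 3.67 in the control libraries. Mbd3, the bridge subunit, averaged 110 ± 27.0 FPKM in the knockout and 127 ± 24.5 FPKM in the control cultures (-0.21, SE 0.13, limma adjusted p = 0.280), and was lower in the knockout in 7 of 9 pairs. A difference that misses the threshold does not show that the levels were alike: the 95% intervals of these 5 genes reached from -0.47 (Mbd3) to 0.40 (Hdac2).

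Of the other NuRD subunits and paralogues, 6 of 7 were in the table. Of these 6, 1 was called, lower in the knockout, beside 16.9% called over all genes, so that 1 of 6 lay near the background. The gene called was Chd3. Its values had a lowest of 24.9, a median of 42.6 and a highest of 124 FPKM in the knockout libraries, and a lowest of 30.7, a median of 74.7 and a highest of 142 FPKM in the controls. The groups overlapped widely, with 2 of 14 knockout libraries below every control. The means were 50.9 ± 28.6 FPKM in the knockout and 87.2 ± 35.1 FPKM in the control cultures, a difference of -0.71 (SE 0.23, limma adjusted p = 0.0346). Chd3 was lower in 7 of 9 pairs, with a median difference of -0.79, among them all 4 whose titles name the same stage. Most of these 4 pairs came from 1 knockout and 1 control culture followed over time, so they are not independent. The replicate block gave -0.69 (limma adjusted p = 0.0360), while the 7 culture pairs gave -0.56 (0.160). Within DL4 the difference was -1.13 (0.00767), within DL1 -0.62 (0.268) and within standard IL-7 -0.73 (0.0412); the interaction with stroma was -0.47 (SE 0.50, limma adjusted p = 1.00). The call is close to the threshold: of 25 fits that each left out 1 library, 14 kept it. It was lost, with adjusted p-values between 0.0504 and 0.0955, without knockout DL1 library 1, 3 or 4, knockout DL4 library 3 or 4, control DL1 library 2, 6, 7 or 8, or control DL4 library 1 or 3. Without the library labelled control DL1 1 the difference was -0.86 (limma adjusted p = 0.00277).

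The other 5 did not pass the test. Mta3, the third Mta scaffold gene, averaged 49.5 ± 5.83 FPKM in the knockout and 53.4 ± 9.01 FPKM in the control cultures (difference -0.10, limma adjusted p = 0.473). Mbd2, which replaces Mbd3 in a second form of the complex and binds methylated CpG, averaged 66.3 ± 12.9 FPKM in the knockout and 72.2 ± 8.23 FPKM in the control cultures (-0.17, 0.314). Mbd2 was lower in the knockout in 8 of 9 pairs, with a median difference of -0.18. Gatad2a and Gatad2b, the bridging p66 subunits, averaged 31.1 ± 5.32 and 17.1 ± 6.87 FPKM in the knockout, and 29.3 ± 5.73 and 18.3 ± 7.71 FPKM in the control cultures. Cdk2ap1, a small subunit, averaged 107 ± 25.7 FPKM in the knockout and 103 ± 16.5 FPKM in the control cultures.

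**Figure D3:**
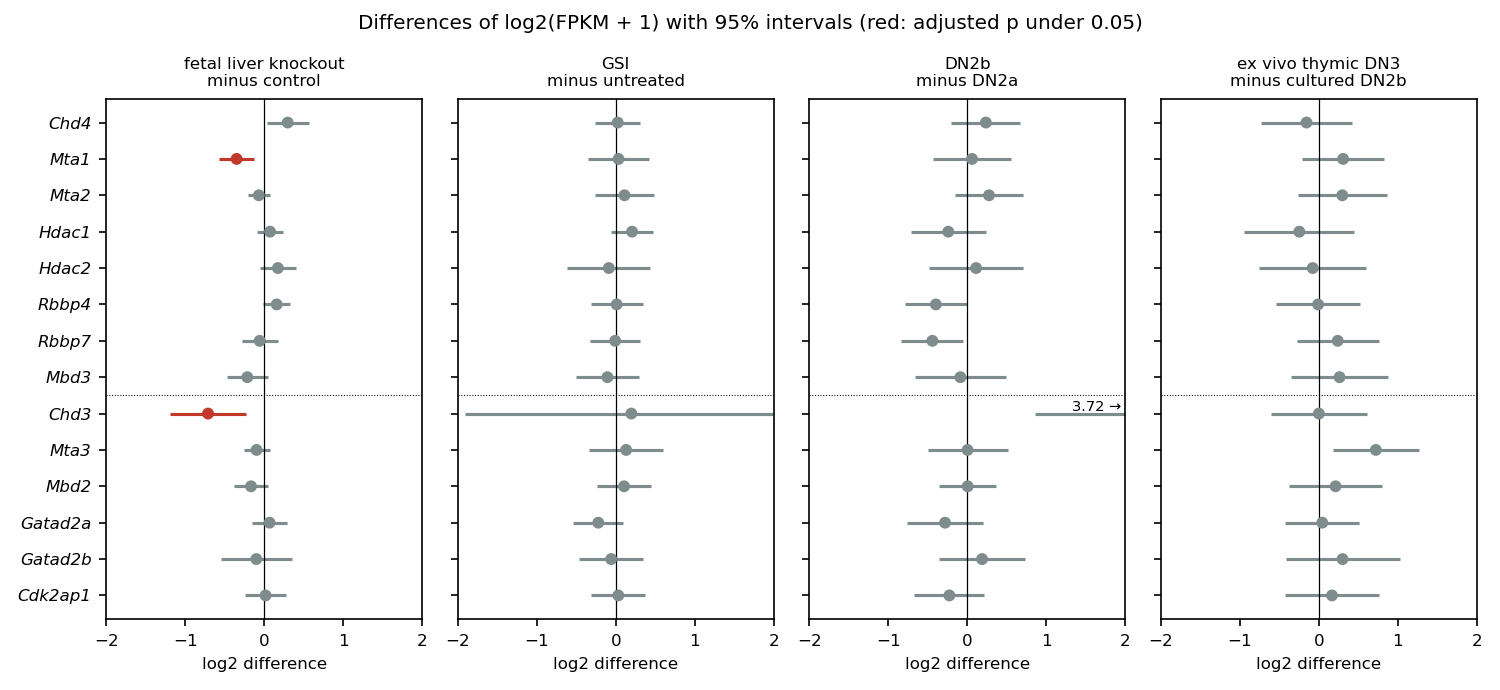
Differences of log2(FPKM + 1) (horizontal axes, cut at -2 and 2) with 95% intervals from limma for the 8 members (above the dotted line) and 6 other NuRD genes (below it) in 4 comparisons; red marks an adjusted p under 0.05. Mta1 and Chd3 are red in the knockout panel and no gene is red in the others; the Chd3 point of the DN2b panel lies off the axis at 3.72.

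Other deacetylase complexes were read beside NuRD. Hdac1, Hdac2, Rbbp4 and Rbbp7 also serve the Sin3 complex, and the 2 deacetylases serve CoREST and MiDAC. None of the 14 Sin3 genes and none of the 12 CoREST and MiDAC genes in the table was called in the knockout comparison, with 4 and 1 at an unadjusted p under 0.05 in limma. Their median differences were -0.03 and 0.02, beside 0.04 over all genes. The median difference of 14 tested entries of other histone deacetylases and NCoR subunits was 0.04. Beside 16.9% called over all genes (9.8% higher and 7.1% lower), none of these 14 was higher and 2 were lower. These were Hdac6, a cytoplasmic deacetylase that acts on tubulin, at 7.24 ± 1.10 FPKM in the knockout and 12.8 ± 3.25 FPKM in the control cultures (-0.71, limma adjusted p = 5.05e-05), and 1 of 2 entries of Hdac4. Hdac4, a class II deacetylase, stood at 10.1 ± 4.91 FPKM in the knockout and 18.7 ± 6.81 FPKM in the control cultures in that entry (-0.94, limma adjusted p = 0.00803), and its other entry, which differed by -0.81, did not pass the test.

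Of 12 zinc-finger factors known to bind NuRD, 2 were higher and 1 lower, with a median of 0.07. Over all genes 9.8% were higher and 7.1% lower in this comparison. Bcl11a, the paralogue of Bcl11b, rose to 15.5 ± 3.60 FPKM in the knockout, against 5.35 ± 2.07 FPKM in the control cultures (1.42, SE 0.16, limma adjusted p = 3.00e-07). Ikzf2, an Ikaros family factor, rose to 20.7 ± 8.89 FPKM in the knockout, against 10.4 ± 3.80 FPKM in the control cultures (0.82, SE 0.24, limma adjusted p = 0.0154), and the replicate block gave 0.81 (0.0778). The one lower was Bcl11b itself. Of 16 proliferation genes 1 was lower and none higher, with a median of -0.07: Tyms, an enzyme of thymidylate synthesis, at 60.3 ± 11.4 FPKM in the knockout and 78.7 ± 16.2 FPKM in the control cultures (-0.38, limma adjusted p = 0.0203).

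Of 8 genes of T-cell precursors, 2 were higher in the knockout (Kit and Gata3), 1 was lower (Thy1) and 5 did not pass the test, beside 16.9% called over all genes. Kit, the receptor used for the sort gate, had 55.7 ± 21.5 FPKM in the knockout and 28.8 ± 11.3 FPKM in the control cultures (0.96, limma adjusted p = 0.00510; 0.0576 with the replicate block). Gata3, a T-lineage factor, had 69.1 ± 23.2 FPKM in the knockout and 40.0 ± 11.8 FPKM in the control cultures (0.78, limma adjusted p = 0.00326). Thy1, a T-cell surface protein, had 402 ± 98.6 FPKM in the knockout and 634 ± 149 FPKM in the control cultures (-0.66, limma adjusted p = 0.00143; 0.0505 with the block). None of 8 tested stroma genes and none of 4 tested myeloid genes was called, with 0 and 1 at an unadjusted p under 0.05 in limma, and the 1 tested B-cell gene, Cd79b, was lower (-0.46, limma adjusted p = 0.0481; 0.0800 without the library labelled control DL1 1).

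GSI treatment was compared with no treatment in 4 date-matched pairs of DN2a and DN2b cultures. A fit with the 4 pairs as a replicate block called no gene. The fit given here allowed for stage and not for the pairs. No member was called, as was true of all 12783 genes tested (0%; limma, 297 genes at an unadjusted p under 0.05). None of the members was among those 297. The members' differences lay between -0.10 (Mbd3) and 0.21 (Hdac1), with a median of 0.02 beside -0.02 over all genes. Hdac1 had 192, 177, 142 and 175 FPKM in the DN2a and DN2b GSI libraries, and 159, 150, 153 and 130 FPKM in their untreated partners. It was higher with GSI in 3 of 4 pairs, and 3 of the 4 GSI libraries lay above all 4 partners. The difference was 0.21 (SE 0.12, interval -0.06 to 0.48, limma adjusted p = 1.00). Mta2 and Mta3 were higher with GSI in 4 of 4 pairs and Gatad2a lower in 4 of 4, by medians of 0.10, 0.11 and -0.27. The smallest of the Mta2 differences was 0.01. All remaining members and paralogues went both ways over the pairs. How many of all genes went the same way in 4 of 4 pairs was not measured, so these counts only describe. Mta1 was at 81.0 ± 12.1 FPKM with GSI and 79.4 ± 14.5 FPKM without (0.04, SE 0.17, limma adjusted p = 1.00). Without the pair labelled DN2b 1, whose titles say DN3, no member was called either, and Hdac1 differed by 0.31 and Mta1 by 0.06 (limma adjusted p = 1.00 for both).

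The stage comparison set 2 untreated DN2b libraries against 4 untreated DN2a libraries. No member and none of the other NuRD genes was called, where 13.5% of 13364 genes were (9.23% higher, 4.23% lower). The number of genes called was 1799, and 60 without the library labelled DN2b 1, whose title says DN3. The groups did not overlap for 2 of the 8 members, both lower in DN2b, as was so for 45.1% of all genes tested (27.1% higher, 18% lower); 2 of 8 lay below that background. Rbbp7 had 142 and 136 FPKM in DN2b, against 166, 206, 175 and 217 FPKM in DN2a. Both DN2b values lay below all DN2a values. The difference was -0.44 (SE 0.17, limma adjusted p = 0.116). Rbbp4 had 188 and 194 FPKM in DN2b, against 210, 278, 256 and 268 FPKM in DN2a, again with no overlap (-0.40, SE 0.17, limma adjusted p = 0.145). Without the library labelled DN2b 1 the differences of Rbbp7 and Rbbp4 were -0.47 and -0.37 (limma adjusted p = 0.305 and 0.402). After quantile normalization, which moved the median of all genes to -0.05, against 0.07 as deposited, the differences of Rbbp7 and Rbbp4 were -0.25 and -0.14. Of the 16 proliferation genes 3 were called lower in DN2b, 1 higher and 12 did not pass the test, and their summed level was 2029 and 2087 FPKM in DN2b and 2354 to 2947 FPKM in DN2a. Over the 47 libraries Rbbp7 followed the mean of the proliferation genes with r = 0.73 and rho = 0.77, Rbbp4 with r = 0.50 and rho = 0.52, and Mta1 with r = 0.18 and rho = 0.13. The part of proliferation in the stage difference was not tested. Myeloid markers summed to 10.4 and 23.6 FPKM in DN2b and to 51.8 to 71.3 FPKM in DN2a, and none of these 6 genes was at the lowest value in every library of either stage. Their part in the difference was not tested.

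Chd3 showed the widest stage difference of the NuRD genes. It had 141 and 88.3 FPKM in DN2b, against 11.9, 0.1, 40.0 and 8.09 FPKM in DN2a, where 0.1 is the lowest value of the table. The values are batch-adjusted, so 0.1 does not show that the transcript was absent. In that DN2a library 6.67% of genes stood at 0.1, the largest share of the 47 libraries, and Bcl11b was among them. The groups did not overlap. The difference was 3.72 (SE 1.22, limma adjusted p = 0.0823) and did not pass the test. It passed in 4 of 12 alternatives: 2.74 (0.0431) without the DN2a library listed at 0.1, 4.48 (0.0480) without DN2a library 3, 4.90 (0.0130) with the replicate block of 2 pairs, and 3.72 (0.0436) in 1 fit with thymic DN3. The other 8 missed the threshold, among them 3.39 (0.319) without the library labelled DN2b 1, 4.06 (0.198) without DN2b library 2 and 4.40 (0.160) with a pseudocount of 0.1. Chd4 differed by 0.24 in the same comparison (SE 0.19, limma adjusted p = 0.411), at 198 ± 22.2 FPKM in DN2b and 169 ± 27.1 FPKM in DN2a. Mta1, called in the knockout comparison, differed by 0.06 (SE 0.21, limma adjusted p = 0.863). Without the library labelled DN2b 1, Chd4 differed by 0.35 and Mta1 by -0.07 (limma adjusted p = 0.459 and 0.899).

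Ex vivo thymic DN3 cells were set against cultured DN2b cells, a comparison in which the stage, the source and the culture cannot be told apart and 0.245% of 13495 genes were called (0.141% higher, 0.104% lower). These were 33 genes, and 323 were called without the library labelled DN2b 1. No NuRD gene was called in either fit. The groups did not overlap for 2 of the 8 members, beside 28.2% of all genes tested (16.1% higher, 12.1% lower), so that 2 of 8 lay near the background. Mta1 had 92.1, 86.8 and 109 FPKM in DN3 and 84.4 and 70.0 FPKM in DN2b, with no overlap (0.31, SE 0.22, limma adjusted p = 0.688). Rbbp7 had 181, 164 and 151 FPKM in DN3 and 142 and 136 FPKM in DN2b, also without overlap (0.24, limma adjusted p = 0.771). Mta3 was at 73.5, 85.1 and 99.2 FPKM in DN3 and at 58.0 and 45.3 FPKM in DN2b (0.72, SE 0.23, limma adjusted p = 0.263), and these did not overlap either. Without the library labelled DN2b 1 the differences of Mta1, Rbbp7 and Mta3 were 0.44, 0.27 and 0.90 (limma adjusted p = 0.705, 0.867 and 0.276). Hdac1 had 150, 82.4 and 135 FPKM in DN3, against 153 and 130 FPKM in DN2b; the floxed CreERT2 library held the lowest Hdac1 value of all 47. Stroma markers summed to 20.8 to 26.6 FPKM in DN3 and to 58.9 to 63.0 FPKM in DN2b, and their part in these values was not tested.

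**Figure D4:**
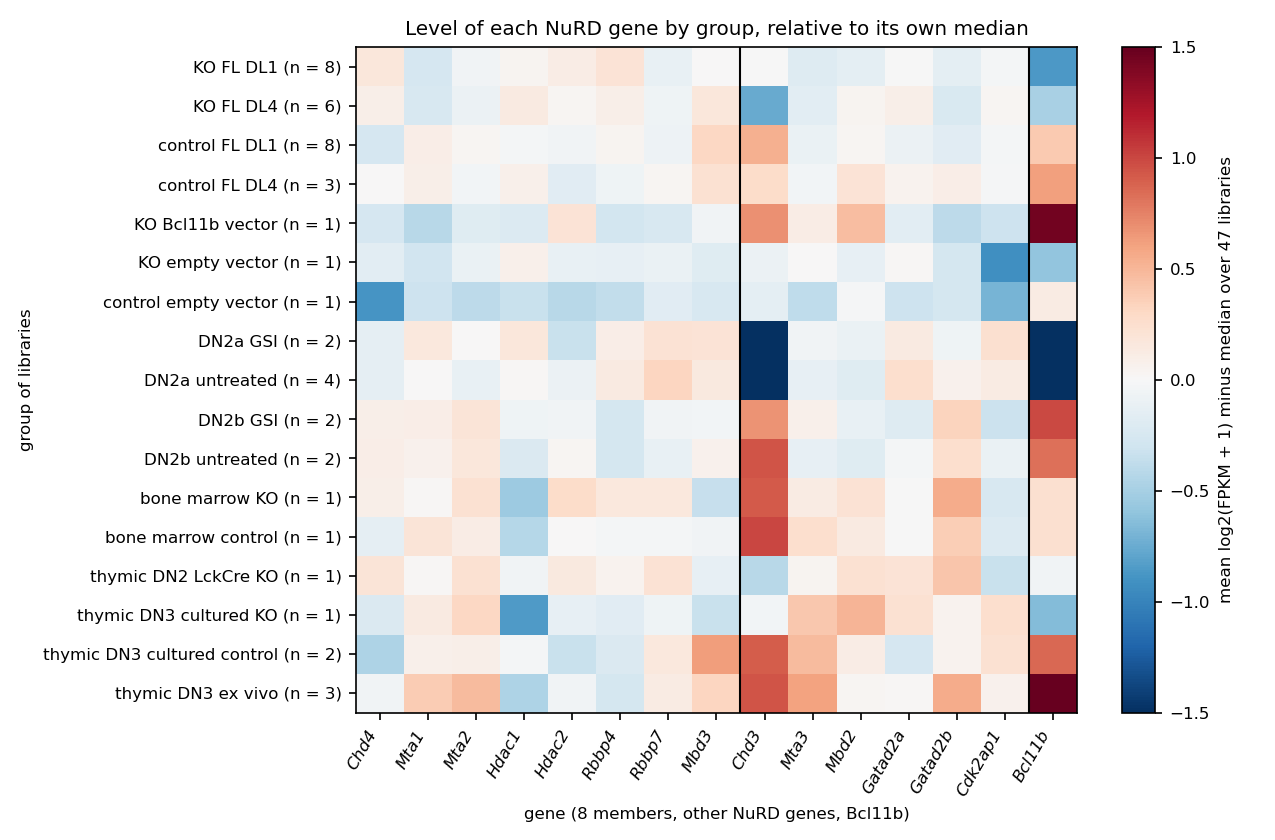
Mean log2(FPKM + 1) of each NuRD gene and Bcl11b (columns) in 17 groups of libraries (rows, with n) minus the median of the gene over 47 libraries; red is higher and blue lower, and colours end at -1.5 and 1.5. The members (left of the first line) are mostly pale, apart from Chd4 in the empty-vector control, Hdac1 in the cultured thymic knockout and Mbd3 in its controls, while Chd3 and Bcl11b are both dark blue in DN2a and red in DN2b and ex vivo DN3.

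The single libraries carry no test. Returning Bcl11b to knockout cells by a vector gave 105 FPKM of Bcl11b, against 24.7 FPKM with an empty vector. Chd3 was 93.3 FPKM with the Bcl11b vector and 54.1 FPKM with the empty vector, a difference of 0.77, larger in size than that of 93.3% of the genes in those 2 libraries. A difference of at least 2-fold was seen for 3.51% of the genes and for none of the members. Chd3 was 52.1 FPKM in the empty-vector control, so it was not lower in the empty-vector knockout. Mta1 was 54.8 FPKM with the Bcl11b vector and 59.9 FPKM with the empty vector. Chd3 was 43.0 FPKM in the LckCre thymic DN2 knockout and 117 FPKM in LckCre DN3 cells, where the stage differs as well and 8.29% of genes differed at least 2-fold. In the bone marrow cultures, where 2.85% of genes differed at least 2-fold, Chd3 was 110 FPKM in the library labelled knockout and 117 FPKM in the control. Bcl11b there was 45.0 FPKM in the library labelled knockout and 44.9 FPKM in its control, so the targeted gene goes against that label. In thymic DN3 cells after culture, where 15.1% of genes differed at least 2-fold between the knockout and the day 4 control, Chd3 was 56.0 FPKM in the knockout and 94.8 and 125 FPKM in the controls. Hdac1 was 90.9 FPKM in the knockout of that set, against 154 and 166 FPKM in its controls. The empty-vector knockout had 164 FPKM of Chd4, and the empty-vector control 99.2 FPKM (0.72), where 8.26% of genes differed at least 2-fold. In that control the 8 members summed to 835 FPKM, the lowest of the 47 libraries.

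The members did not rise and fall as a group over the libraries. Of their 28 pairs, 16 had a positive and 12 a negative Pearson r over 47 libraries, between -0.45 and 0.63 with a median of 0.06. The libraries share groups, cultures and batch adjustment, so these are descriptions. The lowest were Mta1 with Hdac2 (r = -0.45, rho = -0.39) and Chd4 with Mbd3 (r = -0.45, rho = -0.49). Chd4 with Mbd3 was also negative within the knockout (r = -0.74) and control (r = -0.49) fetal liver libraries. Hdac2 went with Rbbp4 (r = 0.46, rho = 0.52) and with Rbbp7 (r = 0.37, rho = 0.44).

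For each member the 2 genes most like it were taken from the 9098 genes with a mean of at least 5 FPKM, by Pearson r on the log2 scale over 47 libraries. They were Kdm2a (0.86) and Map4k4 (0.83) for Chd4, and Foxp4 (0.85) and Tcf3 (0.80) for Mta1. For Mta2 they were Nfkbie (0.80) and Zcchc8 (0.79), for Hdac1 Apobec3 (0.78) and Rpl3 (0.76), and for Hdac2 Ube2v2 (0.88) and Rg9mtd1 (0.86). For Rbbp4 they were Clp1 (0.83) and Pomp (0.78), for Rbbp7 Ipo5 (0.84) and Ubr7 (0.83), and for Mbd3 Mcrs1 (0.91) and Sars2 (0.90). No member was the gene most like another member.

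Bcl11b and the members were set side by side in the same way. Mta2 had r = 0.50 (rho = 0.49) with Bcl11b and Rbbp4 r = -0.60 (rho = -0.65), and Chd4 had r = 0.10 (rho = 0.06). Chd3, singled out after its values were seen, had r = 0.91 (rho = 0.84) over the 47 libraries. Without the 2 libraries farthest in Bcl11b, both DN2a, r was 0.81. Within the 11 fetal liver controls it was 0.81 and within the 14 knockout libraries 0.15.

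**Figure D5:**
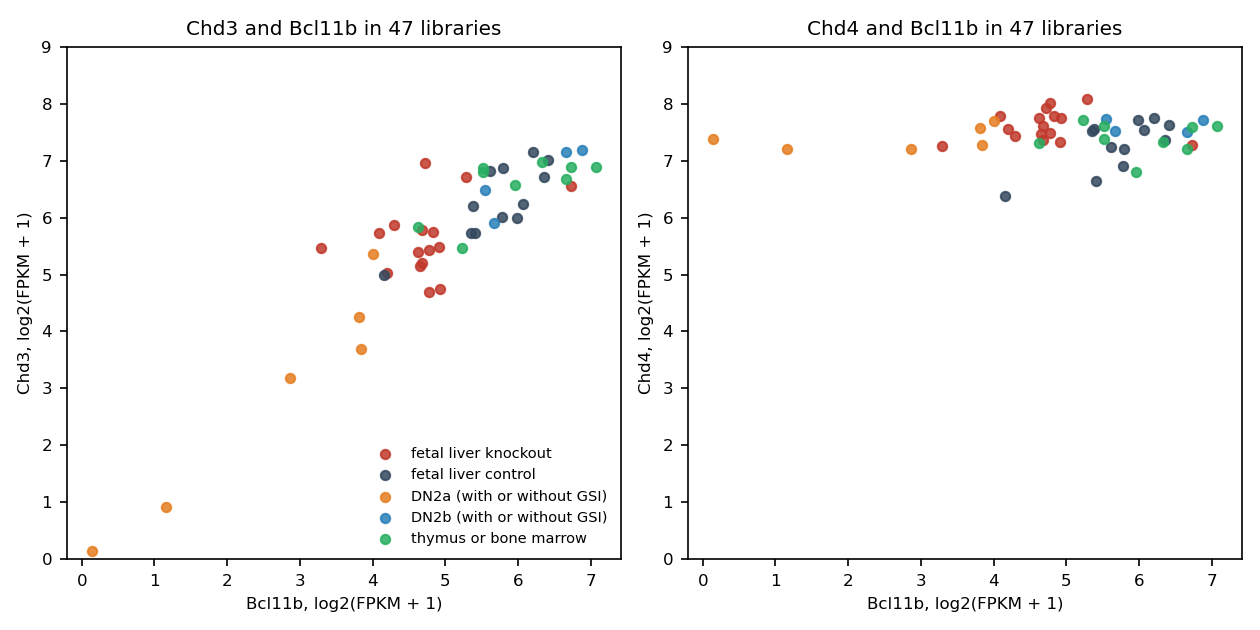
Chd3 (left) and Chd4 (right) against Bcl11b in 47 libraries, all as log2(FPKM + 1); each point is 1 library, coloured by its source. The Chd3 points run from low left (DN2a) to high right (DN2b and thymic cells with intact Bcl11b). The thymic knockouts lie between, and the Chd4 points lie in a flat band.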

How the data were processed

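RNA-seq values of 47 libraries were read from 1 table of FPKM values that the authors deposited, described by its name as merged and adjusted with ComBat, which removes batch differences. The submitters' processing notes name mm9 as the genome build. Not given in the sources used here are the aligner, the counter and the ComBat batches; the batch adjustment could have moved differences either way. Depth is unknown, so no counting interval is given. A further 16 columns matched no sample and were not used. Per the labels' protocols no library step marks strand.

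Values were tested as log2(FPKM + 1), which understates differences of low genes, with limma 3.58.1 (R 4.3.3; trended empirical Bayes, Benjamini-Hochberg over all genes tested). A gene was tested at 1 FPKM or more in at least as many libraries as the smaller group held, and called at an adjusted p under 0.05. Covariates were stroma and IL-7 level for the knockout and stage for GSI. The limma fit was checked on simulated data.

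The members and the gene lists were chosen with earlier results of these data known. Text names all members, the other NuRD genes, Bcl11b, up to 3 called genes of each further list in the knockout comparison, and the 2 genes most like each member. Genes not in the table were Chd5, Elmsan1, Zfpm2, Zfp532, Sall1, Sall4, Adgre1, Pax5 and Blnk. The lists hold Sin3, CoREST and MiDAC, other deacetylases and NCoR, zinc-finger partners, proliferation, T-cell precursors, OP9 stroma, myeloid and B cells.

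Pairs come from title dates in the labels. Deviations from group means correlated between -0.05 and 0.53 within 9 knockout pairs, and between 0.62 and 0.66 within 4 GSI pairs. The 2 DN2b GSI pairs have the same r by construction, since each of their groups holds 2 libraries. Alternatives were another pseudocount (0.1), quantile normalization, no filter, leaving out each library, robust variances, other covariates, subsets, replicate blocks and, added after seeing the data, the 3 controls with a DN2 stage label only and GSI without the DN2b pair titled DN3.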

Additional observations from a re-analysis of the deposited data

Results flagged for a closer look

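Of 56 combinations of gene and group that were examined for a single distant library, 3 were marked, where chance marks about 1 in 20. Gatad2b, a p66 subunit of NuRD, was at 32.0 FPKM in knockout DL4 library 1, while the other 5 libraries of that group had 9.82 to 16.8 FPKM. Gatad2b was also at 36.4 FPKM in control DL1 library 7, and the rest of that group had 7.40 to 20.0 FPKM. Hdac1 was at 218 FPKM in DN2a library 4, harvested on day 4.5, and the other DN2a libraries had 149 to 159 FPKM.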

How the results depend on the processing

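The number of members called in the knockout comparison was 1 as reported and 1 with no filter, a pseudocount of 0.1, robust variances, quantile normalization, no covariates or the title year added. It was 0 with either replicate block (9 date pairs or 7 culture pairs), within DL1, within DL4, within standard or reduced IL-7, within each of the 3 title years, and against the DN2-labelled controls alone, and 0 to 1 when each library was left out. The subsets hold fewer libraries; the cause of the other changes was not tested. Mta1 stayed negative in all 41 alternatives, between -0.62 and -0.21, and was called in 29. Chd3 stayed negative and was called in 23. In the GSI, stage, thymic and interaction comparisons the members called were 0 under every alternative run, blocks included, and no called gene reversed. The replicate block also ended the calls of Kit, Thy1, Ikzf2 and Cd79b, and with 7 pairs that of Hdac4 and Chd3.

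All-gene counts in the knockout comparison were 2142 as reported, 1282 and 858 with the 2 blocks, 988 and 451 within DL1 and DL4, 1396 and 430 within standard and reduced IL-7, 475, 270 and 778 by year, and 425 against DN2-labelled controls. Quantile normalization gave 1142 higher and 1209 lower, against 1242 and 900 as deposited. For DN2b against DN2a it gave 567 and 662, against 1234 and 565, and leaving out 1 library gave between 60 and 1406 calls; a pseudocount of 0.1 gave 1065, the block 624. For thymic DN3 the count was 33, with 6 to 323 when 1 library was left out, 83 with robust variances and 170 in 1 fit with DN2a. For the IL-7 interaction it was 100, with 40 to 202. Unknown depth and 2 DN2b libraries limit these comparisons.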
